A study of Mus musculus with 8 samples.

Results

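Cortical thymic epithelial cells (cTEC) that carried messenger RNA of the cell division programme were examined in the thymus of 1 week old mice. They were selected on measured values. A cell had to hold at least 3 UMIs (unique molecular identifiers, each standing for 1 captured transcript) of Epcam, Krt8, Krt18 and Krt5 and more of these than of the fibroblast genes Col1a1, Col1a2, Col3a1 and Dcn. It further needed at least 3 UMIs and 0.1% of its UMIs from Psmb11 and Prss16, and detection of at least 3 of the 5 cycle genes Mki67, Top2a, Birc5, Ube2c and Cdk1. The rule found 407 cells among 9953 in the whole data set and among 2009 cTEC of the same age, with 269 in replicate 1 and 138 in replicate 2. The comparison cells were the 526 neonatal cTEC with none of the 5 genes detected, 273 and 253 in the 2 replicates.

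All mice were wild-type C57BL/6 animals, at 1 week or at 16 weeks of age. Thymic stroma was depleted of CD45+ cells, stained with barcoded antibodies, sorted as CD45- Ter119- cells that were EpCAM1+ or EpCAM1-, and loaded on droplets for joint RNA and surface protein counting. At each age the thymi were pooled, and the pool was loaded on 2 wells. The 2 replicates are therefore wells of 1 pool, and their spread is technical. No test over animals was possible, so every comparison below is given as values per well with counting intervals. The 4 wells held 1430 to 4738 cells with a median of 6668.5 to 8690.5 UMIs per cell, and 15 cell barcodes occurred in more than 1 library, which touched 3 of the selected cells and 2 comparison cells.

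Cortical epithelial cells line the outer thymus, draw in blood-borne progenitors and select thymocytes on self peptides that a dedicated proteasome and lysosomal proteases produce. The neonatal thymus grows, and its epithelium is known to divide at this age far more than in the adult. A dividing cell first licenses and copies its DNA and then turns on a later set of genes for chromosome condensation, the spindle and cytokinesis, which largely share promoter elements bound by the DREAM and MuvB complexes. The 5 genes of the rule belong mainly to that later set: Mki67 coats mitotic chromosomes, Top2a untangles them, Birc5 is a subunit of the chromosomal passenger complex, Ube2c marks cyclins for destruction, and Cdk1 is the mitotic kinase.

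The promoters of Kif11, Kif15 and Cenpf, which stood among the 10 highest genes in both comparisons below, are shown, because they hold the elements that this programme shares. They come from RefSeq on GRCm38.p6, span 250 bases before to 50 after the start and read 5′ to 3′ in the direction of the gene. Capitals mark TTTGAA or TTCGAA (the cell cycle genes homology region, CHR), CCAAT and the E2F-type words TTTCCCGC, TTTCGCGC, TTTGCCGC and TTTGGCGC, each searched on both strands.

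Kif11, chr19:37376132-37376431, plus strand: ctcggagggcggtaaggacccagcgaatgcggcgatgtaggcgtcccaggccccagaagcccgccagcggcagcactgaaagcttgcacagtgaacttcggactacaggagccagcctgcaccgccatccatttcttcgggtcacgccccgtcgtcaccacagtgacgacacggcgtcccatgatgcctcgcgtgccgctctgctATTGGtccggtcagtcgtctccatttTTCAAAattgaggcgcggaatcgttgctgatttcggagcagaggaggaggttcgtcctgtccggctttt
Kif15, chr9:122950831-122951130, plus strand: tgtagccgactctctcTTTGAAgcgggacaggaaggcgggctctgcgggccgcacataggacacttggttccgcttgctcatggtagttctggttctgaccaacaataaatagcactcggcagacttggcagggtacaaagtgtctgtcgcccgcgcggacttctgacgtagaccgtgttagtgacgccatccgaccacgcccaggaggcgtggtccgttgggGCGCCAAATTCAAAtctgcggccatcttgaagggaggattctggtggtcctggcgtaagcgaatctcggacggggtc
Cenpf, chr1:189688037-189688336, minus strand: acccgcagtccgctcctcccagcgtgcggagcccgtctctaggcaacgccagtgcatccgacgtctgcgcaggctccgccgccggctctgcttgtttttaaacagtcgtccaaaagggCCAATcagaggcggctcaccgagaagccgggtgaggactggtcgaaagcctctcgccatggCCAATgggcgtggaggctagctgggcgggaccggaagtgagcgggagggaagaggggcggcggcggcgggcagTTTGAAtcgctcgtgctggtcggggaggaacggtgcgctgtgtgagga

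In Kif11 and in Kif15 a CHR word began 19 bases before the start, and Kif15 held another 234 bases before it. In Cenpf it began 2 bases after it, with CCAAT words 132 and 71 bases before the start. Among the promoters of the genes called higher in all matched members (148 of the 198 genes had a RefSeq promoter), 45.0% held a CHR word, against 13.8% of the promoters of all genes tested and 19.2% of all 32851 promoters. CCAAT was held by 59.8%, against 37.8% of the promoters of tested genes and 37.4% of all promoters. An E2F-type word was held by 13.6%, against 3.96% and 2.26%. In the genes called higher in the narrower set described next the shares were 35.4%, 51.4% and 10.8%. The words are short and were not tested for binding: Ccl25, which stood lower, has a CHR word 67 bases before 1 of its starts, and 22.7% of the promoters of genes called lower in that set held one. Among genes called lower in all matched members, 3 of 7 promoters held one.

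Detection of 3 of the 5 genes did not go with a high level of them in every selected cell. The 5 genes stood at a median of 579 CPM (UMIs per 1000000 UMIs of the cell) in the selected cells, 684 in replicate 1 and 264 in replicate 2. Detecting 3 of 5 genes takes a smaller share of UMIs in a deep cell, and the deep cells held less of them. Of the 407 cells, 141 had over 40000 UMIs, with a median of 118 CPM. Of these, 107 held the 5 genes at under 0.05% of UMIs, a limit that keeps their median low, at 86.3 CPM. All 602 cells of the same age that failed the epithelial rule, in cycle or not, had a median of 82.3 CPM. RNA of other cells was present too: 315 of the 407 cells had at least 2 UMIs of 20 thymocyte markers, and in 121 these markers reached 0.05% of UMIs. A deep cell reaches 2 UMIs more easily. Of the 526 comparison cells, 131 reached 0.05%. The median share was 0.0184% in the selected cells and 0.0271% in the comparison cells, so thymocyte RNA was not particular to the selected cells.

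The cells were therefore also described within 2 limits that were set after the data had been seen. At or above 0.05% of UMIs from the 5 genes and under 0.05% from thymocyte markers were 128 cells, 94 in replicate 1 and 34 in replicate 2, called high-signal members here. Their 5 genes stood at a median of 1552 CPM, 1442 and 2043 in the 2 wells, and their median depth was 7759.5 UMIs. A further 87 cells had the cycle signal together with thymocyte RNA, 158 had neither, and 34 had thymocyte RNA without the cycle signal. The 158 cells had a median depth of 40825.5 UMIs. In a shallow cell the 3 detected genes alone reach 0.05% of UMIs, so the cycle limit works in part as a limit on depth. The cells just inside the threshold, with exactly 3 of the 5 genes, were 220 with a median of 275 CPM, and those just outside, with exactly 2, were 447 with 234 CPM.

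**Figure D1:**
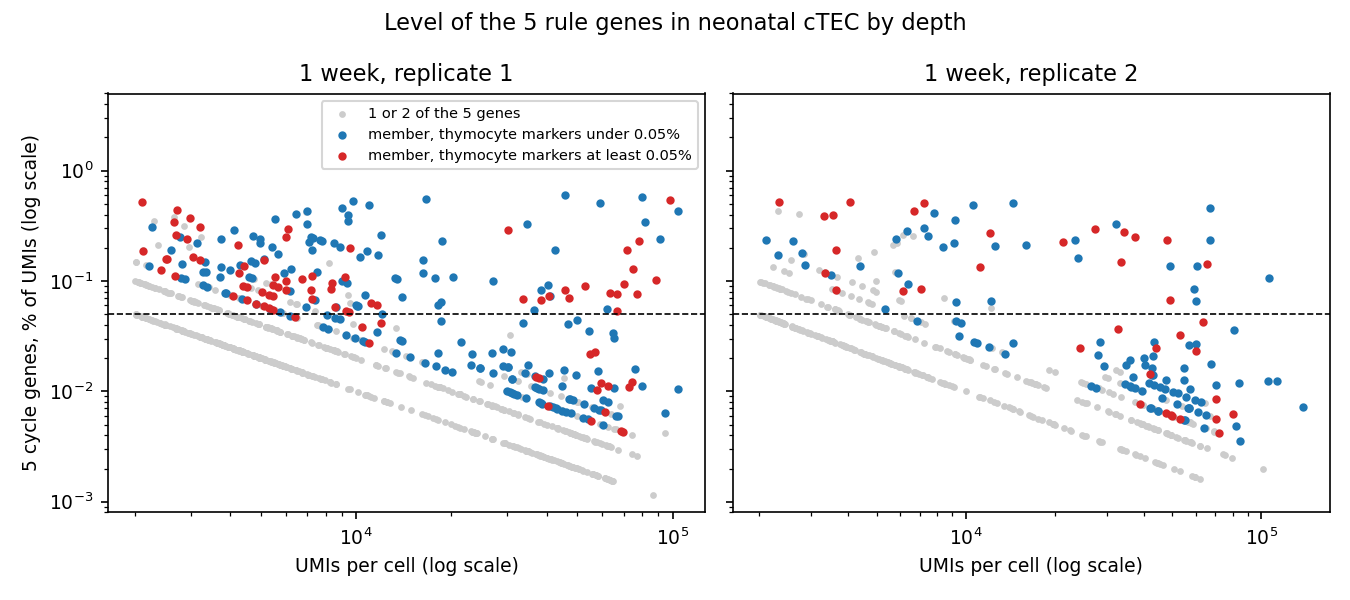
Share of UMIs from the 5 cycle genes (log axis) against total UMIs per cell (log axis) for neonatal cTEC of each well. Grey points are cTEC with 1 or 2 of the 5 genes, blue and red points are selected cells with thymocyte markers under and at least at 0.05%, and the dashed line is 0.05%, below which 107 of the 141 selected cells over 40000 UMIs lie.

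Psmb11, the thymoproteasome subunit of cTEC, was detected in 91.8% and 91.3% of the selected cells of the 2 wells, and in 85.1% and 76.5% of the high-signal members. In cycling epithelial cells outside the cTEC rule it was detected in 76.4% and 72.6%, so detection alone does not set the groups apart. Its level was 440 and 346 CPM in the high-signal members, 945 and 930 CPM in cTEC with none of the 5 genes, and 94.8 and 79.9 CPM in those cells outside the rule. Mki67 was detected in 79.9% and 81.2% of the selected cells and in 88.3% and 94.1% of the high-signal members. Top2a was detected in 85.1% and 80.4% of the selected cells and in 91.5% and 94.1% of the high-signal members. These genes chose the cells, so the shares are given as a description.

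For the comparison, each cell was paired within its well with the comparison cell nearest in total UMIs, at most 20% away. This gave 171 pairs in replicate 1 and 84 in replicate 2, and 98 and 54 selected cells, 52 and 47 of them over 40000 UMIs, had no partner. The median depth was 7814 UMIs against 6723 in replicate 1 and 13124.5 against 13245 in replicate 2. A gene was called where it had at least 20 UMIs in each well over both groups and differed at least 2-fold in the same direction in both wells. In all matched members 198 of 10910 genes were higher, 1.81%, and 7 were lower, 0.0642%, with the genes of the rule left out. The members were chosen by RNA of the same cells, so nothing is read from these counts beyond a description. The 128 high-signal members had 123 partners, 90 and 33, among comparison cells with under 0.05% thymocyte markers. Of 7697 genes, 338 were higher, 4.39%, and 47 were lower, 0.611%. Both comparisons draw on the same pool of comparison cells.

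Among the highest ratios were those of motor, kinetochore and abscission genes. Kif11, the kinesin that pushes spindle poles apart, stood at 40.1 and 69.5 CPM in all matched members of replicates 1 and 2, against 1.73 and 2.23 CPM in their partners, a log2 ratio of 4.67 (95% counting interval 3.76 to 5.98). In the high-signal members it stood at 106 and 168 CPM, with a single UMI among all partners, a log2 ratio of 7.12 (5.21 to 13.01). Cenpf, a kinetochore protein of late G2 phase, stood at 610 and 518 CPM in the high-signal members against 12.0 and 9.93 CPM, a log2 ratio of 5.65 (5.02 to 6.45). Both genes were high in the 2 wells of the members and low in the 2 wells of the partners.

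In all matched members the leading 10 were Kif15, Kif11, Knl1, Kif2c, Cep55, Cenpf, Cit, Diaph3, Spag5 and Aspm, with log2 ratios from 3.54 to 4.73. In the high-signal members the leading 10 included Kif11, Knl1, Cep55, Cenpf, Kif15, Trip13, Kif20a, Iqgap3 and Ankle1, with log2 ratios from 5.03 to 7.12. Knl1 is the scaffold of the outer kinetochore, Cep55 and Cit act in abscission of the daughter cells, and Trip13 remodels the spindle checkpoint.

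Of the spindle, motor and cytokinesis genes, 27 of 31 measured were higher in all matched members with a median log2 ratio of 2.57, and 30 of 30 were higher in the high-signal members with a median of 4.18. Of the kinetochore and spindle checkpoint genes, 19 of 22 and 21 of 22 were higher, with medians of 2.25 and 3.75. Over all genes tested the medians were 0.08 and 0.06. The abundant members of the spindle list were tubulins: Tubb5 stood at 891 and 961 CPM in the high-signal members against 237 and 230 CPM, and Stmn1, which destabilises microtubules, at 865 and 755 CPM against 101.6 and 53.0. Of the 7 genes of mitotic exit and CKS proteins, 6 were higher in the high-signal members, among them Cdc20, the activator of the anaphase-promoting complex, at 216 and 176 CPM against 6.97 and 8.27.

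Of the chromosome structure genes, 8 of 22 were higher in all matched members, with a median log2 ratio of 0.93. In the high-signal members 16 of 21 were higher, with a median log2 ratio of 1.98. Hmgb2, a chromatin protein of dividing cells, stood at 1517 and 1627 CPM against 195 and 172, a log2 ratio of 3.06 (2.89 to 3.24). H2afz, a replacement histone, stood at 1282 and 1270 CPM against 356 and 268. Of the replication-dependent histones, 10 of 14 measured were higher with a median of 2.09. Most of their messages lack a poly(A) tail, and the libraries were made from poly(A) RNA. Hist1h2ap stood at 1447 and 1886 CPM against 122 and 108, and 1 cell gave 21.2% of its UMIs.

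The replication genes moved less than the spindle and kinetochore genes, and in the high-signal members less evenly between wells. Of the DNA synthesis and chromatin assembly genes, 10 of 32 were higher in all matched members with a median of 0.84, and 16 of 29 were higher in the high-signal members, with medians of 1.21 in replicate 1 and 2.01 in replicate 2. Pcna, the sliding clamp of the polymerase, stood at 114 and 223 CPM in the high-signal members against 48.8 and 67.9. Of the origin licensing and firing genes 9 of 12 were higher, with medians of 1.34 and 2.60 in the 2 wells. Mcm6, a subunit of the replicative helicase, stood at 53.0 and 115 CPM against 21.9 and 14.9. Of the replication checkpoint and repair genes 9 of 15 were higher with a median of 1.47.

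Of the cyclins, kinases and cycle transcription factors 8 of 15 were higher in the high-signal members, among them Ccnb1, the mitotic cyclin, at 162 and 90.6 CPM against 6.97 and 1.66, and Ccna2 at 133 and 110 CPM against 6.97 and 0. The D-type cyclin Ccnd2, the most abundant of the list, stood at 319 and 479 CPM against 241 and 185 and was not called, and Cdk4 stood at 281 and 294 CPM against 178 and 228. Of the 13 CDK inhibitors and quiescence genes measured, 3 were higher and none lower: Cdkn2c and Cdkn2d, which inhibit CDK4 and CDK6, and Gas1. Cdkn2c stood at 46.2 and 56.6 CPM against 12.0 and 3.31. Cdkn1a, a target of p53, stood at 27.9 and 37.2 CPM against 29.9 and 43.0, and the early-response inhibitor Btg2 at 650 and 835 CPM against 641 and 591, neither past the 2-fold call.

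**Figure D2:**
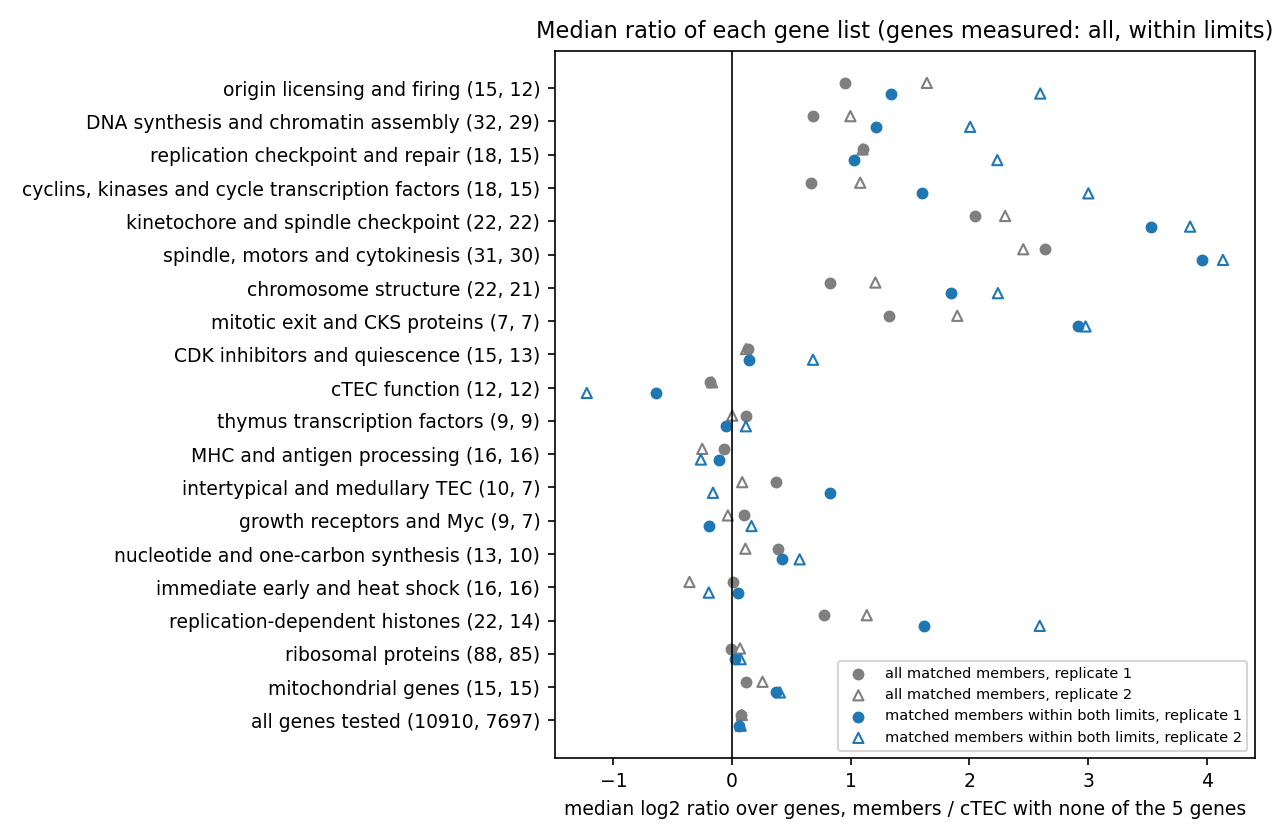
Median log2 ratio of each gene list between selected cells and depth-matched cTEC with none of the 5 genes, per well, for all matched members (grey) and for the high-signal members within both limits (blue). Numbers in parentheses count the genes measured in each, and the spindle and kinetochore lists lie furthest right while the cTEC function list is the only one with both blue points below -0.5.

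The place of the cells in the cycle was read after thinning each cell to 4000 UMIs, from a replication list (52 genes of licensing and DNA synthesis) and a mitosis list (64 genes of kinetochore, spindle and exit). A count above the 95th percentile of the cTEC with none of the 5 genes, 8 UMIs for replication and 12 for mitosis, was taken as raised. Of the 103 high-signal members deep enough, 49 had the mitosis list alone raised, 39 both lists, 3 the replication list alone and 12 neither. Of the 192 selected cells with under 0.05% cycle genes, all deep enough, 162 or 84.4% had neither list raised, 18 had replication alone, 11 mitosis alone and 1 both. Of the 87 selected cells that had the cycle signal together with thymocyte RNA, 67 were deep enough, and 28 of these had both lists raised, 22 mitosis alone and 17 neither. Of the 526 cells with none of the 5 genes, 277 were deep enough and set the limits, and 254 of them had neither raised. The 5 genes that chose the cells are mainly genes of the later set, so the excess of mitosis over replication calls follows in part from the choice and is a description. The median mitosis count was 27 UMIs in the high-signal members, 6 in the selected cells with under 0.05% and 6 in the comparison cells.

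**Figure D3:**
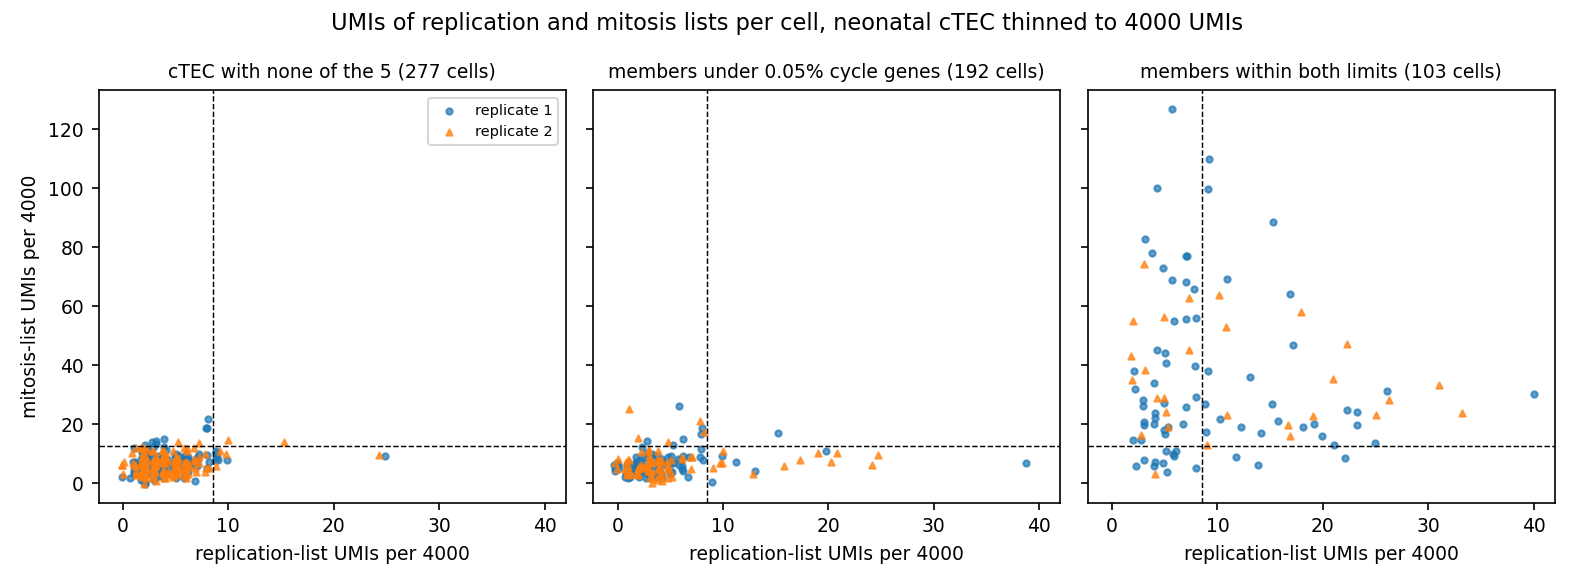
UMIs of the replication list (horizontal) and the mitosis list (vertical) in each neonatal cTEC thinned to 4000 UMIs, with points shifted by a small random amount to part ties. Dashed lines mark the 95th percentile of the 277 cells with none of the 5 genes; selected cells under 0.05% cycle genes overlap those cells, and the 103 high-signal members lie mostly above the horizontal line.

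A minority of the genes that serve the cortical niche was called lower in the high-signal members. Of the 12 cTEC function genes measured 4 were lower and none higher, with medians of -0.64 in replicate 1 and -1.22 in replicate 2, while in all matched members none was called and the medians were -0.18 and -0.17. Ccl25, the chemokine that draws progenitors into the thymus, stood at 1499 and 1034 CPM in the high-signal members of replicates 1 and 2, against 4221 and 4500 CPM in their partners. That is a log2 ratio of -1.71 (-1.78 to -1.64) over both wells, and the 2 groups do not overlap over the wells. The interval covers counting error only: the single wells, at -1.49 and -2.12, both lay outside it.

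The other 3 genes called lower followed it. Ctsl, the lysosomal protease that makes class II peptides in cTEC, stood at 4876 and 4020 CPM against 10655 and 11627, a log2 ratio of -1.27 (-1.31 to -1.24). Tbata, which is known to restrain division of thymic epithelium, stood at 2268 and 1522 CPM against 5216 and 5709, a log2 ratio of -1.44 (-1.50 to -1.38). Cd83, which holds class II molecules at the surface, stood at 129 and 133 CPM against 396 and 392, a log2 ratio of -1.60 (-1.83 to -1.37). All but Cd83, which was seen in 61.8% of high-signal members and 71.5% of partners, were detected in nearly every cell of both groups. A lower level in each cell and fewer rich cells were not told apart. The wells differed in size, with replicate 2 further from its partners for Ccl25, Ctsl and Tbata. The log2 ratios of replicates 1 and 2 were -1.13 and -1.53 for Ctsl and -1.20 and -1.91 for Tbata, outside the counting intervals. When each cell was given equal weight the log2 ratios were smaller, at -1.05 for Ccl25, -0.94 for Tbata, -1.03 for Cd83 and -0.77 for Ctsl, so the last and Tbata then lay inside the 2-fold line.

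The rest of the list moved less than 2-fold in at least 1 well. Ly75, an endocytic receptor used to sort cTEC, stood at 208 and 212 CPM against 352 and 400. Cd274, the ligand of PD-1, stood at 265 and 265 CPM against 491 and 460. Il7, the thymocyte survival cytokine, stood at 156 and 136 CPM against 191 and 161, Dll4, the Notch ligand that commits T cells, at 76.1 and 89.0 CPM against 110 and 101, and Kitl at 101 and 146 CPM against 103 and 81.1. Cxcl12, another chemokine, stood at 799.5 and 621 CPM against 994 and 1057. Enpep, which encodes the cTEC sorting antigen Ly51, stood at 21.2 and 17.8 CPM against 27.9 and 53.0, and Cd40 at 36.6 and 14.6 CPM against 41.8 and 54.6, both on few UMIs and with the wells far apart. With each cell given equal weight, Cd40 turned to a log2 ratio of 0.20 and Il7 to 0.09.

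Of the thymic transcription factors none of 9 measured was called in either direction, and their median log2 ratio was 0.01. Foxn1, the master regulator of thymic epithelium, stood at 136 and 154 CPM in the high-signal members against 176 and 209, a log2 ratio of -0.40 (-0.65 to -0.15). Pax9 stood at 169 and 180 CPM against 174 and 165. Of 16 MHC and antigen processing genes only Psmb10, a proteasome subunit that cTEC share with the immunoproteasome, was called. It stood at 622 and 450 CPM against 1404 and 1231, a log2 ratio of -1.26 (-1.38 to -1.15). The class II gene H2-Ab1 stood at 2617 and 2499 CPM against 2640 and 2616, H2-Aa at 2402 and 2200 CPM against 2657 and 2673, and Cd74, the invariant chain, stood at 6576 and 5755 CPM against 9004 and 8796.

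**Figure D4:**
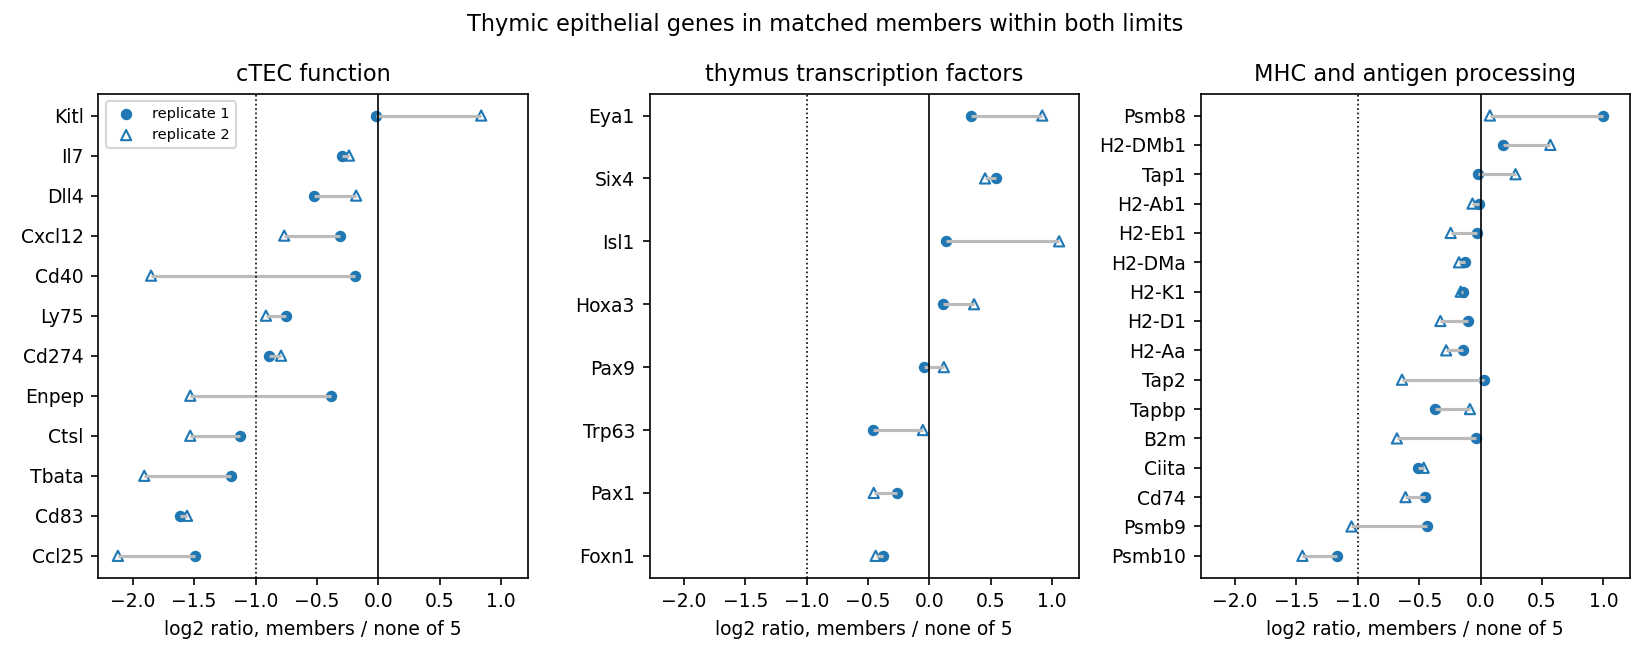
Log2 ratio of measured genes between high-signal members and depth-matched cTEC with none of the 5 genes (both groups under 0.05% thymocyte markers), 1 point per well, joined by a line. Dotted lines mark a 2-fold lower level; Ccl25, Cd83, Tbata, Ctsl and Psmb10 lie left of it in both wells, and the transcription factors lie between -0.5 and 1.1.

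Psmb11 and Prss16 were part of the rule and are given without a reading. The 2 together took a median of 0.174% of UMIs in the high-signal members and 0.264% in cTEC with none of the 5 genes. Ccl25 and Tbata together took a median of 0.274% and 0.179% of UMIs in the matched high-signal members of the 2 wells, against 0.401% and 0.308% in their partners. The single cells ranged from 0.0401% to 2.47% in replicate 1, so a few high-signal members had as much as a rich partner.

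Among the 47 genes called lower, the 10 with the largest ratio were Slfn5, Mir22hg, Clip4, Hmox1, Rasl10a, Meg3, Ccl25, Slc22a7, Ppp1r27 and Cd83, with log2 ratios from -2.05 to -1.60. Meg3, an imprinted long noncoding RNA, stood at 80.0 and 37.2 CPM in the high-signal members against 216 and 218. It was also lower in all matched members, at 47.2 and 41.7 CPM against 140 and 107, where the others called lower were Hba-a2, Fam217b, Skint7, Tcaim, Elac1 and Tpra1. Hba-a2 is alpha globin, and 1 comparison cell held 90.7% of its UMIs.

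Several other groups held no called gene. Of 10 nucleotide and one-carbon synthesis genes none was called, with medians of 0.42 and 0.57 in the 2 wells, and of 7 growth receptor and Myc genes none was called, with a median of -0.13. Myc itself stood at 32.8 and 37.2 CPM against 31.9 and 33.1. Ribosomal protein genes had a median of 0.05 over 85 genes. Immediate early and heat shock genes, which respond to tissue digestion, had medians of 0.05 and -0.20 in the 2 wells with none of 16 called. Mitochondrial genes had medians of 0.37 and 0.40 over 15 genes, none called, and summed to 55219 and 51289 CPM against 48350 and 37754 CPM.

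Of 7 intertypical and medullary genes measured 1 was higher, Krt14, a basal keratin of medullary and progenitor cells, at 83.8 and 87.4 CPM against 40.8 and 29.8. Krt17, another basal keratin, stood at 745 and 571 CPM against 1317 and 1147, and Pdpn, which encodes podoplanin, at 69.4 and 71.2 CPM against 34.9 and 31.4. Ccl21a, a medullary chemokine, stood at 223 and 472 CPM against 632 and 579.

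Thymocyte RNA was higher in all matched members and alike in the high-signal comparison, whose limits fix this. In all matched members the 20 thymocyte markers summed to 593 and 1617 CPM in the 2 wells, against 470 and 288 CPM in the partners, with a median log2 ratio of 1.44 over 16 measured genes and Ptprc at 25.1 and 46.2 CPM against 12.1 and 3.91. Single cells reached 0.669% and 1.83% of UMIs in the members of the 2 wells and 2.11% and 0.630% in their partners, so the highest cell of replicate 1 was a partner. Ptprc was the only marker called, and Cd28, Rhoh and Slamf6, further lymphocyte genes named after their values were seen, were among the 198 genes called higher. The part of thymocyte RNA in the calls of all matched members was not tested. Without cells holding 2 or more thymocyte UMIs, 43 genes were higher and 10 lower, and the spindle list kept a median of 2.52. That run held 46 and 25 pairs in the 2 wells, against 171 and 84, so fewer genes could reach 20 UMIs per well. In the high-signal comparison the markers summed to 148 and 100 CPM against 162 and 104 CPM, Rag1 had 1 UMI in the members and 6 in the partners, and Ptprc had 6 in each. Fibroblast markers had medians of 0.89 and -0.86 in the 2 wells, and endothelial and myeloid markers were measured for 2 and 1 genes. Of the erythroid markers Hbb-bs stood at 2173 CPM in replicate 1 partners, where 1 cell gave 95.9% of its UMIs.

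The surface tags were read in the same cells, as the share of all tag counts of the group. The barcodes of 4 are shown because their tags are described first.

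CD83: tctcaggcttcctag
CD270: gatccgtgttgccta
CD274: tcgattccaccaact
Epcam: acccgcgttagtatg

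In the high-signal members 7 of 27 tags were higher in both wells and 8 were lower. A tag was counted where both wells shared a sign, whatever the size, which many tags would do without a difference. Ly6D had no counts. CD83 was at 2.56 and 1.96 per 10000 tag counts in replicates 1 and 2 against 5.54 and 7.08 in the partners, and its log2 ratios of -1.12 and -1.85 stand beside those of its RNA, -1.62 and -1.56. The tag was sparse, with a median of 1 and 0 counts per cell in the members and 2 and 1 in the partners. CD274 was at 47.3 and 43.5 per 10000 against 63.5 and 72.1, with RNA log2 ratios of -0.89 and -0.79. CD270, the herpesvirus entry mediator, was at 169 and 241 against 293 and 316. Protein and RNA of Cd83 and Cd274 were thus lower in both wells.

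Epcam protein was higher, at 389 and 377 per 10000 against 308 and 243, and so was podoplanin, at 189 and 230 against 158 and 125. MadCAM1 was at 12.3 and 14.3 per 10000 against 7.94 and 8.73. CD73 was at 48.9 and 53.3 against 37.0 and 20.9. CD49a was lower, at 21.0 and 16.5 against 24.6 and 37.1, with 28.8% of its counts in replicate 2 from 1 cell. As centred log ratios the differences of CD73 (-0.052 and 0.67), CD49a (0.35 and -0.40), CD86 (0.17 and -0.46) and CD54 took opposite signs in the 2 wells. CD31, higher in shares, was lower in both wells (-0.049 and -0.59). CD83, CD270, CD274, Epcam, podoplanin and MadCAM1 had the same direction as in shares. The tags for class II molecules and for the lectin UEA1, which made up most counts, parted between wells: MHCII was at 4606 and 5850 against 6022 and 5783, and UEA1 at 3055 and 1757 against 1622 and 1920. The paper uses UEA1 to mark medullary epithelial cells. Whether medullary cells are among the high-signal members, and add to their lower Ccl25, Ctsl and Tbata, was not tested. CD40 was at 94.99 and 82.2 against 91.2 and 128, and CD54 at 846 and 862 against 970 and 969. For CD31 in replicate 1 and CD157 in replicate 2 a single cell gave 77.1% and 63.0% of the counts. In all matched members CD83 stood at 5.51 and 6.01 against 6.07 and 7.42, Epcam at 325 and 293 against 298 and 267, and Podoplanin at 160 and 159 against 141 and 159. As centred log ratios Podoplanin (-0.17 and -0.044) and Epcam (-0.083 and -0.00044) were lower in both wells of all matched members. Ly6G_Ly6C was at 8.82 and 8.56 against 5.47 and 2.55 there, with 27.1% and 31.3% of its counts from 1 cell in each well.

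**Figure D5:**
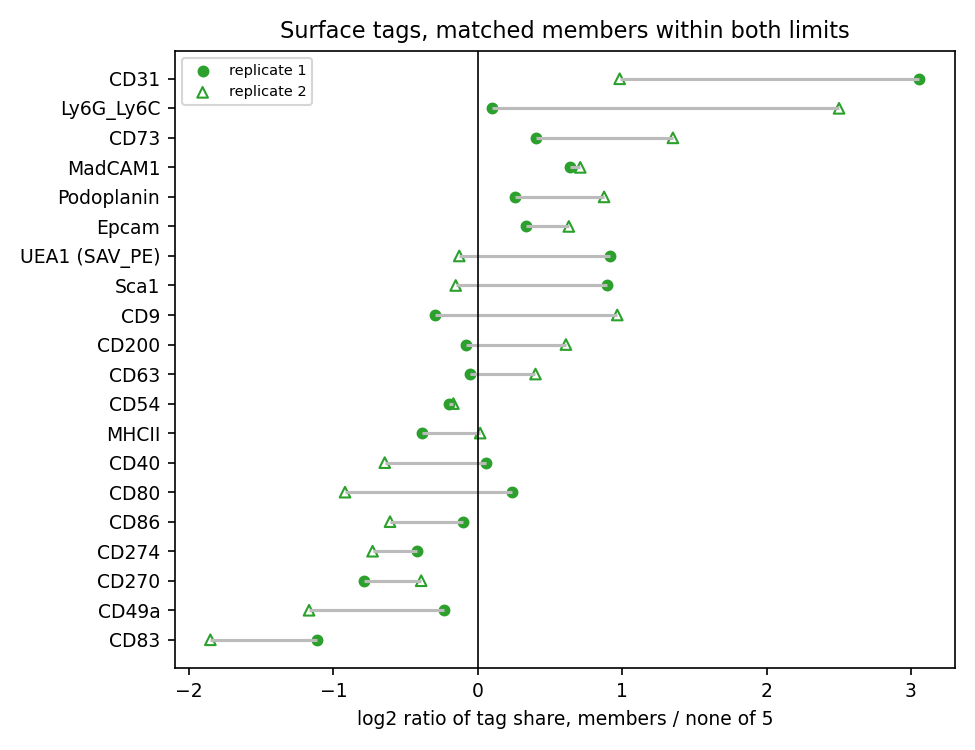
Log2 ratio of each tag's share of tag counts between high-signal members and their depth-matched partners, 1 point per well, for tags with at least 5 counts per 10000 in some group. CD83, CD270 and CD274 lie left of 0 in both wells and Epcam, Podoplanin and MadCAM1 right of it; for CD31 a single cell gave 77.1% of the counts in replicate 1.

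By the rule as given, 22.6% (95% exact binomial interval 20.2 to 25.1) of neonatal cTEC in replicate 1 and 16.9% (14.4 to 19.6) in replicate 2 were selected. With every cell thinned to 4000 UMIs the shares were 10.0% (8.08 to 12.2) of 860 and 6.02% (4.20 to 8.31) of 565. High-signal members made up 7.89% (6.42 to 9.57) and 4.16% (2.90 to 5.76) of all neonatal cTEC. The intervals of the 2 wells did not overlap for the first and the last pair of shares and overlapped for the thinned pair. Both wells hold cells of 1 pool. Within the 2 limits alone, without the need for 3 of 5 genes, the shares were 12.2% (10.4 to 14.2) and 8.56% (6.73 to 10.7). At 16 weeks these limits alone took 0 of 69 and 1 of 185 cTEC. At 16 weeks the rule took 3 of 69 and 7 of 185 cTEC, thinned cells gave 0 of 55 and 1 of 148, and none was high-signal, which allows a share of up to 4.35% and 1.62% at 3 counts, with exact upper bounds of 5.21% and 1.97%. Ages were run as separate pools, so age and pool cannot be told apart.

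The cycling epithelial cells outside the cTEC rule were more frequent at 1 week, with 21.6% (17.4 to 26.3) and 19.2% (15.0 to 23.97) of such cells within the same limits. Cells that failed the epithelial rule gave 12.5% and 8.70%. Set side by side, without matching, Ccl25 stood at 1483 and 1161 CPM in all high-signal members, at 413 and 262 CPM in cycling epithelial cells outside the rule, and at 4972 and 4364 CPM in cTEC with none of the 5 genes. Ctsl followed the same order, at 5299 and 4394, 2091 and 1917, and 11492 and 11032 CPM. Cells outside the rule were not limited in thymocyte RNA in these sums. The spindle list summed to 7251 and 6162 CPM in the high-signal members and to 5750 and 7169 CPM in the cycling cells outside the rule. As the rule sets a floor on Psmb11 and Prss16, a cycling cell with less of these genes than the floor was counted outside the rule, whatever its lineage.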

How the data were processed

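The authors deposited UMI counts per gene and tag counts per antibody for 9953 cells with at least 2000 UMIs. Per the labels and the submitters' processing notes, reads were mapped to mm10 with STARsolo 2.7.9a; methods name Ensembl annotation. Labels and methods differ on the kit version. Both count tables were used as deposited, with samples read from the well name that ends each cell name and opens one sample's title. Gene names came from GENCODE M21, with 55141 of 55487 identifiers matched; the rest held 0.031% of UMIs. The members and the gene lists were chosen with earlier results of these data known, and the limits of 0.05% were set after seeing the cells, as were other alternatives named so in the closing section.

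Counts were summed per group and well, divided by the summed UMIs and compared as log2 ratios with a prior count of 0.5 added to each sum (Python 3.11.15, numpy 2.4.6, pandas 2.3.3, scipy 1.17.1). Intervals at 95% are exact and cover counting error only. Named genes are the rule genes, the most abundant of each list, and the 10 called genes with the largest ratio in each direction, leaving out genes known by identifiers. Doublets were scored with scrublet in scanpy 1.11.5, whose automatic limit marked 0 to 5 cells per library and was not used. Instead the highest scores at a fixed rate of 0.8% per 1000 cells were left out as an alternative. The procedure was tested on simulated data. Other listed genes are named for their role, with their values seen. No p-value was computed, because each age is 1 pool. The neonatal wells held 31917364 and 25654110 UMIs, and the counting error of a ratio rests on the matched sums: 2671626 against 2310748 and 2014983 against 1792096 UMIs for all matched members, and 1038090 against 1004056 and 618222 against 604272 for the high-signal members. The spread between cells and between wells is not part of that error. A few genes are not reported here.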

Additional observations from a re-analysis of the deposited data

How the results depend on the processing

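No paired analysis was possible because the results come from no test, and the wells of the 2 ages are separate pools. Pairing of cells by depth is matching within a well. For all matched members, 198 genes were higher and 7 lower, and the spindle list was higher and the cTEC function list lower under each alternative run. Genes called higher numbered 49 with cells thinned to 4000 UMIs, 334 with cells weighted equally, 387 with at least 4 of 5 genes, 43 without cells holding 2 or more thymocyte UMIs, 94 and 1275 with at least 50 and 1 UMIs per well, and 511 at 1.5-fold. The run without thymocyte UMIs held only 46 and 25 pairs. Genes called lower numbered 70 without matching, 12 with up to 3 partners, 35 with cells weighted equally, 4 with at least 2 of 5 genes, 4 without scrublet-marked cells, 1 and 364 at 50 and 1 UMIs, and 64 at 1.5-fold. Limits chosen after seeing the data gave 471 higher and 20 lower with at least 0.05% cycle genes, 12 lower with under 0.05% thymocyte markers, and 338 and 47 with both. With 1 well left out, 530 to 671 were higher and 112 to 173 lower, and within both limits 759 to 887 and 227 to 420, since 1 well then decides a call. Within both limits 108 were lower without matching and 80 with up to 3 partners. Ccl25 there ranged from -2.12 to -1.05.

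List medians moved as follows. DNA synthesis was at 0.53 with at least 2 and 1.34 with at least 4 of 5 genes, 1.71 with the cycle limit and 1.52 with both limits. The spindle list was at 2.16 without matching, 2.22 with 3 partners, 2.37 thinned, 1.72 and 3.44 with at least 2 and 4 genes, 3.87 with the cycle limit and 4.18 with both. The cTEC function list was at -0.0679, -0.26, -0.20, -0.10 and -0.34 without matching, thinned, with equal weights, and with at least 2 and 4 genes. It was at -0.50 without thymocyte UMIs, -0.21 with median of ratios scaling, -0.40 and -0.26 with each limit, -0.84 with both, and -0.18 to -0.17 with 1 well left out. Signs turned for intertypical genes, at -0.34 without matching, -0.0938 thinned, -0.0104 with equal weights, -0.10 with at least 4 genes and -0.14 with the cycle limit. They turned for mitochondrial genes, at -0.80, -0.15 and -0.0189 without matching, with 3 partners and without thymocyte UMIs, for CDK inhibitors at -0.0526 and Elac1 at 0.37 without thymocyte UMIs, and for nucleotide synthesis at -0.077 thinned.

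The selected share of neonatal cTEC, 19.7% as the mean of wells, was 42% and 9.17% with at least 2 and 4 genes, 12.2% without thymocyte UMIs, 8.01% thinned, 10.1% with the cycle limit and 8.26% with both, where cells over a thymocyte limit were left out of the total as well (6.02% of all neonatal cTEC). Of 13 tags higher and 4 lower, 3 and 9 were so with at least 2 genes, 7 and 8 with both limits, 6 and 6 higher without thymocyte UMIs and with the thymocyte limit, 8 lower without matching and 12 as centred log ratios, and 8 to 9 lower with 1 well left out. Tag ratios in all matched members changed sign without matching for CD270 (0.36), CD83 (0.29), MHCII (0.15) and UEA1 (-0.84), and with 3 partners for CD270 (0.0268), CD83 (0.00955) and UEA1 (-0.0118). Without thymocyte UMIs CD40 (-0.15), CD54 (-0.0734) and UEA1 (-0.0367) did, and with at least 2 genes Epcam (-0.00117). As centred log ratios CD40 (-0.0729), CD54 (-0.17), Epcam (-0.0417), UEA1 (-0.0435), podoplanin (-0.11), CD63 (-0.0573), CD200 (-0.11) and CD49a (0.15) did. CD40 was at -0.0558 with the cycle limit and -0.29 with both, and CD54 at -0.00144 with the thymocyte limit and -0.18 with both. The causes were not tested.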

Other observations

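Some genes outside the lists also differed in the high-signal members, and they are named here after their values were seen. Apoe, a lipid carrier, stood at 381 and 556 CPM in replicates 1 and 2 against 113 and 59.6 in the partners. Mdk, a heparin-binding growth factor, stood at 927 and 1100 CPM against 441 and 404. Fbln1, a matrix protein, stood at 109.8 and 146 CPM against 29.9 and 23.2, and Cdh11, a cadherin of mesenchymal cells, at 44.3 and 111.6 CPM against 13.9 and 11.6. Fibroblast markers summed to 528 and 328 CPM in the members against 268 and 533 CPM, higher in 1 well and lower in the other, and their part in these genes was not tested. Igfbp2, which binds insulin-like growth factors, stood at 95.4 and 119.7 CPM against 26.9 and 48.0. Among the lower genes, Cstb, an inhibitor of cathepsins, stood at 2836 and 2064 CPM against 6809 and 6586, and Isg20, an interferon-induced exonuclease, at 366 and 217 CPM against 898 and 867.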
